A study of Mus musculus with 25 samples.

Results

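The messenger RNA of 10 glycolytic enzymes was followed in mouse spinal cord astrocytes: Hk1, Pfkm, Aldoa, Aldoc, Gapdh, Pgk1, Eno1, Pkm, Ldha and Ldhb. The genes were chosen by name, as the rows of the 4 deposited tables whose gene symbol equals 1 of these 10, and Vegfa and Hif1a were read beside them. All 10 were found among the 12454 genes listed in any table, and Eno1 was missing from both Smarca4cKO tables, which left 9 there. The series holds 25 libraries of ribosome-associated messenger RNA. Tagged ribosomes (RiboTag, a haemagglutinin tag switched on by Cre) were pulled from thoracic spinal cord of mice carrying GfapCre, so the Gfap promoter sets which cells are tagged and which cells lose a floxed gene.

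All 7 groups carried GfapCre and the floxed Ribotag allele. Smarca4cKO mice also carried Smarca4fl/fl, which removes a chromatin remodelling ATPase, on a strain labelled C57BL6;129S2. Stat3cKO mice carried Stat3fl/fl, which removes a transcription factor of cytokine signalling, on C57BL6, and WT mice, also C57BL6, carried neither. The challenges were lipopolysaccharide (LPS), a bacterial inflammatory stimulus given intraperitoneally at 5 mg/kg 24 hours before tissue was taken, and a complete crush spinal cord injury (SCI) studied after 14 days. From injured cords 3 mm around the lesion centre were taken, core included, plus 1 mm rostral and 1 mm caudal, and matching thoracic segments came from the other mice. The groups were Smarca4cKO SCI (4 libraries), Smarca4cKO LPS (3), Smarca4cKO uninjured (3), Stat3cKO LPS (4), Stat3cKO uninjured (3), WT LPS (4) and WT uninjured (4). SCI was analysed here in Smarca4cKO only, set against uninjured mice of the same genotype, so whether the response to injury depends on genotype cannot be read here. The labels give no ages, and do not say whether each library is 1 mouse, so p-values measure the spread between libraries.

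Glycolysis breaks glucose down to pyruvate, and lactate dehydrogenase then converts pyruvate to lactate or back. Astrocytes are known as a glycolytic cell type of the central nervous system, and the lactate they release can be taken up by neurons. Several steps are shared between isozymes encoded by different genes, and Aldoc is a classical marker of astrocytes. The transcription factor HIF-1, whose oxygen-regulated subunit is the product of Hif1a, raises many glycolytic genes and Vegfa, an angiogenic growth factor, under low oxygen.

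Library totals per table ran between 52433934 and 106513035 counts, and the lowest count of any library was 5163 for Ldha, 16146 for Hk1 and 41093 or more for Pfkm, Aldoa, Aldoc, Pkm and Ldhb. Levels are given in CPM, which are counts relative to the library total, scaled by TMM, a trimmed mean of ratios between libraries. The targeted genes did not follow every label. Smarca4 had 0.0166, 50.0 and 5.70 CPM in the libraries labelled Smarca4cKO LPS, 11.9 to 21.3 in Smarca4cKO SCI and 12.7 to 21.8 in Smarca4cKO uninjured, against 66.2 to 124 CPM in WT LPS and 64.0 to 90.3 CPM in WT uninjured. Stat3 had 92.8 to 322 CPM in the libraries labelled Stat3cKO LPS and 8.61 to 21.6 CPM in Stat3cKO uninjured, against 177 to 516 CPM in WT LPS and 101 to 153 CPM in WT uninjured. The counts cover whole genes, so transcripts without the deleted part may still be counted, and group names below are those of the labels. Gfap and the other 9 astrocyte markers were present in all 25 libraries, and summed oligodendrocyte markers stood apart in Smarca4cKO SCI, as given beside the results they touch.

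The enzymes share sequence with other genes to different degrees, which may affect how well each can be counted. For each gene the longest coding transcript in GENCODE M21 (GRCm38, mm10) was split into windows of 50 bases, the length of the reads, and each window was looked up in the transcripts of all other genes that lie elsewhere. No window of Hk1, Pfkm or Aldoc occurred in such a gene. Genes that overlap the locus were left out of this share. They hold 108 of 4229 windows of Hk1 and 120 of 2383 windows of Pkm. The share was 13.5% for Aldoa, 16.6% for Ldha, 27.0% for Ldhb and 30.5% for Pkm. It was 68.0% for Pgk1, 72.2% for Eno1 and 82.5% for Gapdh, whose windows occurred in 222 other genes, 213 of them pseudogenes. The 4 windows below, each inside 1 coding exon and read 5′ to 3′ on the gene's strand, show the contrast, with capitals left out because no base is singled out. The Gapdh window occurs in 84 other genes, and the 3 others in none.
Gapdh (chr6:125162898-125162947, minus strand): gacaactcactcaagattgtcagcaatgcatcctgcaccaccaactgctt
Aldoc (chr11:78326302-78326351, plus strand): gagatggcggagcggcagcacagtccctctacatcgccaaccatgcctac
Pfkm (chr15:98126398-98126447, plus strand): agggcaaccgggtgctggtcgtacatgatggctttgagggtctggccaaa
Ldhb (chr6:142495572-142495621, minus strand): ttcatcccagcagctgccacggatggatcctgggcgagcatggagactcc

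The counted levels of the 3 most shared enzymes were low. In WT uninjured mice the mean level per kilobase of transcript was 5974 ± 230.1 CPM per kb for Aldoc (SD, n = 4), the highest of the 10. Aldoa followed at 1116 ± 114, Ldhb at 1042 ± 64.9, Pkm at 710.5 ± 31.7, Pfkm at 479 ± 22.2, Ldha at 189.7 ± 28.8 and Hk1 at 94.3 ± 23.1 CPM per kb. Pgk1 stood at 15.4 ± 2.93, Gapdh at 5.28 ± 2.84 and Eno1 at 2.47 ± 0.703 CPM per kb. Across all libraries Gapdh had 209 to 1761 counts, Pgk1 599 to 3899 and Eno1 0 to 1192, where Aldoc had 313011 to 1383532. How reads that match several genes were counted is not given in the sources used here, so the values of Gapdh, Pgk1 and Eno1 are uncertain, and those of Pkm and Ldhb in part. The near-identical gene Eno1b shares most windows with Eno1, and 84.5% of its windows occur in other genes. It was listed at 122 ± 10.9 CPM per kb, above Hk1, and reads may be split between the rows of Eno1 and Eno1b. Whether shared sequence lowered any count was not tested.

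**Figure D1:**
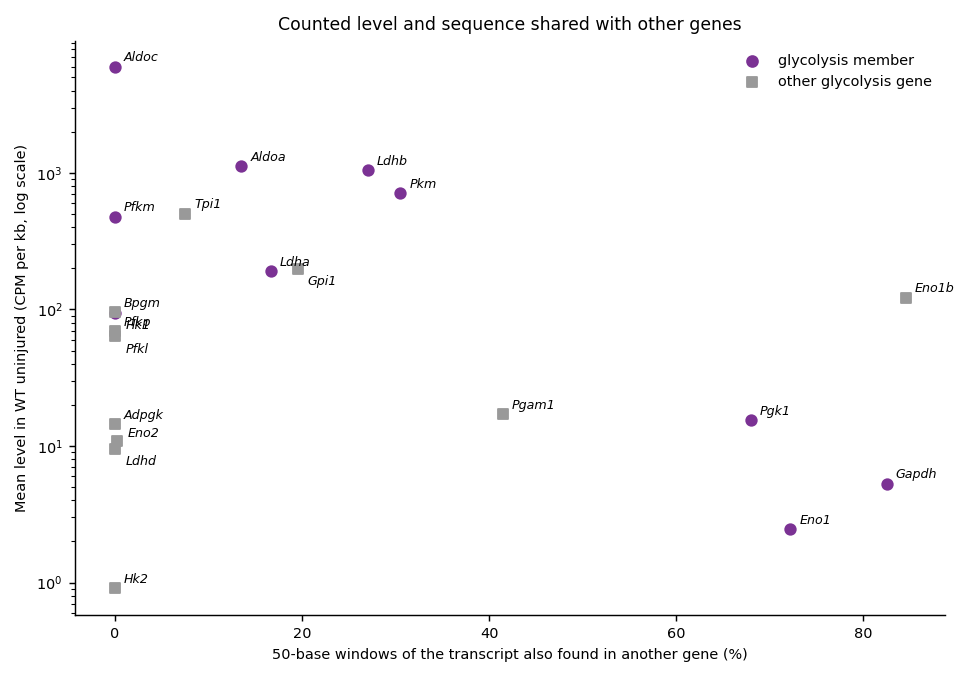
The horizontal axis is the share (percent) of 50-base windows of each glycolysis transcript that also occur in a gene lying elsewhere. The vertical axis is its mean level in the 4 WT uninjured libraries (CPM per kb, log scale). Purple circles are the 10 enzymes and grey squares other glycolysis genes of the list. Gapdh, Pgk1 and Eno1 lie at the lower right while Aldoc is at the top left. Eno1b, with a share of 84.5%, lies higher, at 122 CPM per kb.

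Aldoc, which splits fructose bisphosphate and is the brain form of aldolase, had the highest level per kilobase of the 10 enzymes in every group. The gene lies at chr11:78322968-78327781 on the plus strand. From high to low its mean level was 16642 ± 641 CPM in WT uninjured, 15021 ± 1049 in Stat3cKO uninjured, 14916 ± 2659 in WT LPS and 13095 ± 1275 in Stat3cKO LPS (SD, n as above). The Smarca4cKO groups came after these, with 11255 ± 1474 CPM in LPS, 10395 ± 115 in uninjured and 4559.6 ± 1278 in SCI. The ranges of mean ± SD of neighbours in this order overlapped, except at the last step to SCI.

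**Figure D2:**
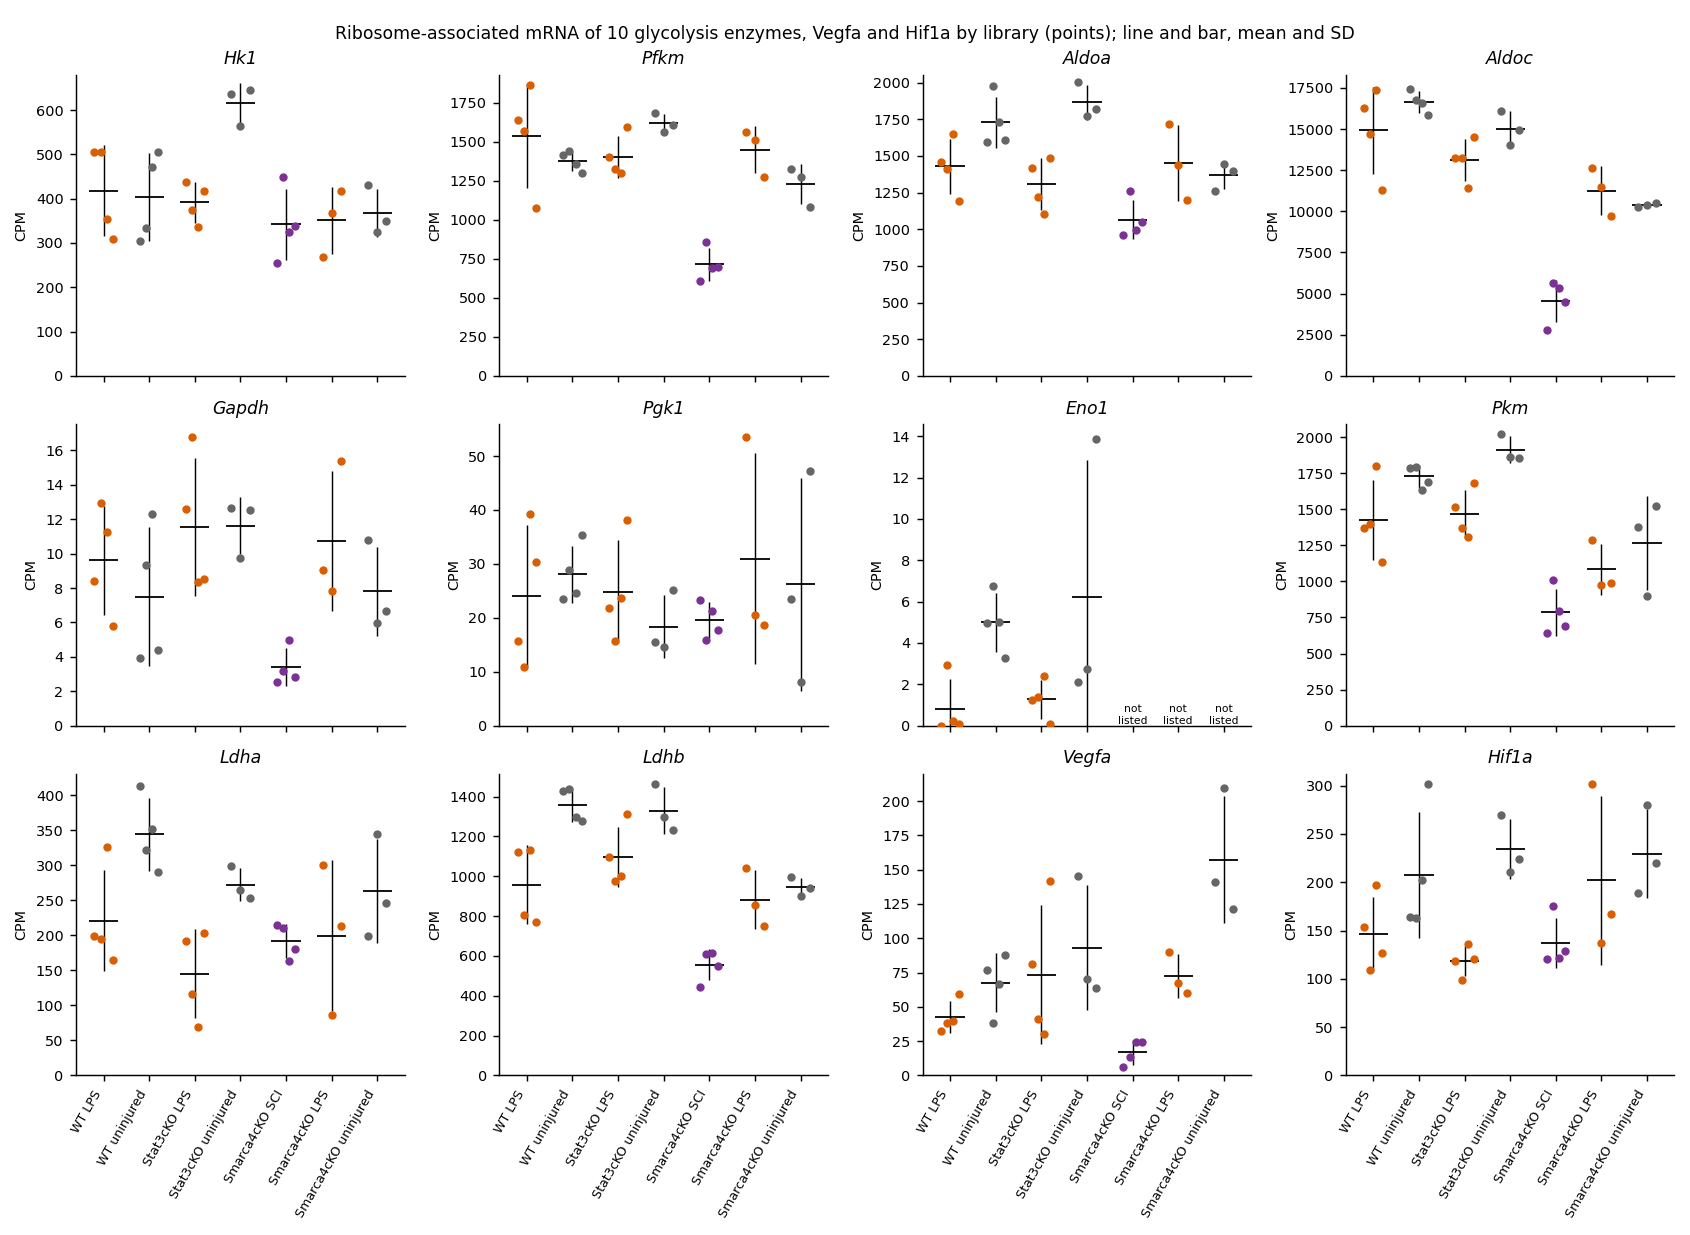
Level of each enzyme, Vegfa and Hif1a in every library (points, CPM, axes from 0) for the 7 groups, with the mean (line) and SD (bar). Orange is LPS, purple SCI and grey uninjured, and in SCI all 4 points of Pfkm, Aldoa, Aldoc, Gapdh, Ldhb, Vegfa and Hif1a lie below the 3 uninjured points of Smarca4cKO.

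After SCI, in Smarca4cKO mice, 3 of the 9 enzymes listed fell and none rose: Pfkm, Aldoc and Ldhb, each by edgeR's quasi-likelihood test at a Benjamini-Hochberg adjusted p under 0.05. Of all 11109 genes tested in this comparison, 14.5% passed. The median log2 fold change of the 9 enzymes was -0.75, against 0.0671 over all genes. All SCI libraries lay below all uninjured ones for 5 of the 9 (Pfkm, Aldoc, Ldhb, Aldoa and the uncertain Gapdh), as for 10.2% of all 11115 genes listed.

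Pfkm encodes the muscle form of phosphofructokinase, the committed step of glycolysis, and lies at chr15:98092589-98132451 on the plus strand. It had 609, 860.2, 693 and 701 CPM in Smarca4cKO SCI, against 1329, 1278 and 1083 CPM in Smarca4cKO uninjured. All 4 SCI libraries lay below all 3 uninjured ones, with a log2 fold change of -0.86 ± 0.15 (SE, adjusted p = 0.00691). Aldoc had 2790.4, 5612, 5368 and 4468 CPM in Smarca4cKO SCI, against 10290.4, 10378 and 10518 CPM in Smarca4cKO uninjured. The uninjured libraries were close together, the SCI libraries were wider apart and all lower, and the log2 fold change was -1.26 ± 0.24 (SE, adjusted p = 0.00917). Ldhb, the lactate dehydrogenase subunit common in heart, lies at chr6:142490249-142507957 on the minus strand. It had 446, 607, 617 and 551 CPM in Smarca4cKO SCI, against 995, 899.7 and 939 CPM in Smarca4cKO uninjured. Its groups did not overlap either, and the log2 fold change was -0.84 ± 0.14 (SE, adjusted p = 0.00652). The calls of Pfkm, Aldoc and Ldhb held in all 13 other settings run, which included leaving out each library in turn. In the authors' deposited table the false discovery rate was 7.33e-05 for Pfkm, 7.78e-08 for Aldoc and 0.000104 for Ldhb.

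The other enzymes did not pass after SCI. Pkm, the pyruvate kinase that makes pyruvate and ATP, lies at chr9:59656368-59679375 on the plus strand. It had 641, 1009.9, 797 and 694 CPM in Smarca4cKO SCI, against 1376, 897 and 1522 CPM in Smarca4cKO uninjured. The groups overlapped through 1 uninjured library, and the log2 fold change was -0.75 ± 0.21 (SE, adjusted p = 0.0524). It passed in 4 of 13 other settings, and the authors' deposited table gives a false discovery rate of 0.00373. Without Smarca4cKO SCI 2 its adjusted p was 0.0453, and without Smarca4cKO uninjured 2 it was 0.0180. Aldoa, the aldolase form common in muscle, had a log2 fold change of -0.44 ± 0.14 (SE, adjusted p = 0.0774), and without Smarca4cKO SCI 2 its adjusted p was 0.0484. Ldha, the lactate dehydrogenase subunit common in muscle, lies at chr7:46841475-46855627 on the plus strand. Its log2 fold change was -0.54 ± 0.22 (SE, adjusted p = 0.188), and without Smarca4cKO uninjured 1 its adjusted p was 0.0471. Hk1, the hexokinase that traps glucose in the cell, had a log2 fold change of -0.18 ± 0.20 (SE, adjusted p = 0.783). Gapdh, whose step makes NADH, lies at chr6:125161715-125166467 on the minus strand, and its log2 fold change was -1.26 ± 0.87 (SE, adjusted p = 0.533). Pgk1, whose step makes ATP, lies at chrX:106187100-106203699 on the plus strand, and its log2 fold change was -0.48 ± 0.72 (SE, adjusted p = 0.869).

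Markers of several cell types moved with the enzymes after SCI, where 14.5% of all 11109 genes passed. Of 10 astrocyte markers, 5 fell, namely Gja1, Slc1a3, Slc1a2, Fgfr3 and Gjb6, and Gfap, an intermediate filament of reactive astrocytes, rose. Gfap averaged 22265 ± 2707 CPM in Smarca4cKO SCI and 14017 ± 451 CPM in Smarca4cKO uninjured (SD, n = 4 and 3), a log2 fold change of 0.59 ± 0.17 (SE, adjusted p = 0.0492). Gjb6, a gap junction gene and the list's largest fall, averaged 232 ± 37.6 CPM in Smarca4cKO SCI and 687 ± 99.8 CPM in Smarca4cKO uninjured, a log2 fold change of -1.64 ± 0.19 (SE, adjusted p = 0.00303). The summed level of the 9 astrocyte markers other than Gfap was 11094 to 15454 CPM in Smarca4cKO SCI, against 21799.6 to 23854 CPM in Smarca4cKO uninjured. The 9 oligodendrocyte markers summed to 29113 to 39336 CPM in Smarca4cKO SCI, against 6787 to 14405 CPM in Smarca4cKO uninjured, and 5 of them rose, among them Mag, Mbp, Cldn11 and Cnp. The 7 microglia markers listed of 9 summed to 245 to 998 CPM in Smarca4cKO SCI, against 73.3 to 390.5 CPM in Smarca4cKO uninjured, where Aif1 was at 0.

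The other marker lists also moved. The 3 macrophage and monocyte markers listed summed to 100.04 to 509 CPM in Smarca4cKO SCI, against 13.5 to 83.8 CPM in Smarca4cKO uninjured. Fibroblast and meningeal markers summed to 501 to 847 CPM in SCI and 245 to 297 CPM in uninjured mice, and Schwann cell markers to 1359 to 2922 CPM in SCI and 685 to 877 CPM in uninjured mice. Of these lists Lyz2 (1 of 3), Lum and Col1a1 (2 of 6) and 2 of 5 Schwann cell genes, among them Pmp22, rose. Oligodendrocyte progenitor, ependymal and endothelial lists had 2 of 5, 2 of 3 and 1 of 2 genes rise, and of 11 neuron markers Nefm fell. Several of these, among them Aif1, Trem2, Lum, Cdh5, Dynlrb2 and Rarres2, were at or near 0 in the uninjured libraries and were tested through SCI only. The 9 enzymes summed to 6078 to 10275 CPM in SCI, against 16988 to 17695 CPM in uninjured mice. In bulk samples, fewer cells of a type and less RNA per cell cannot be told apart. The part of these shifts in the enzymes' fall was not tested.

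After LPS in Stat3cKO mice, 2 of the 10 enzymes fell, Hk1 and Aldoa, and none rose, where 10.6% of all 11709 genes passed. The median log2 fold change of the 10 was -0.31, against -0.00980 over all genes. All LPS libraries lay below all uninjured ones for 4 of the 10 (Hk1, Aldoa, Pkm and Ldha), as for 12.7% of all 11712 genes listed. Hk1, at chr10:62268855-62379908 on the minus strand, had 439, 375, 336 and 417 CPM in the libraries labelled Stat3cKO LPS, against 636, 565 and 646 CPM in Stat3cKO uninjured. No LPS library reached the lowest uninjured one, and the log2 fold change was -0.64 ± 0.14 (SE, adjusted p = 0.0178). Stat3cKO uninjured was the group with the highest Hk1 level of the 7. Aldoa, at chr7:126795234-126800751 on the minus strand, had 1418, 1223, 1103 and 1487 CPM in Stat3cKO LPS, against 2002, 1770.5 and 1822 CPM in Stat3cKO uninjured. The groups did not overlap, with a log2 fold change of -0.50 ± 0.13 (SE, adjusted p = 0.0366).

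Both calls were sensitive to single libraries. Hk1 passed in 8 and Aldoa in 7 of 13 other settings. The adjusted p of Hk1 was 0.0510 without Stat3cKO LPS 2, and 0.0787, 0.0517 and 0.0995 without Stat3cKO uninjured 1, 2 and 3. For Aldoa it was 0.0518, 0.0974 and 0.0622 without Stat3cKO LPS 1, 2 and 3, and 0.150, 0.108 and 0.131 without Stat3cKO uninjured 1, 2 and 3. Pkm did not pass, with a log2 fold change of -0.37 ± 0.12 (SE, adjusted p = 0.0828), though without Stat3cKO LPS 4 its adjusted p was 0.0399. Ldha had 192, 116, 69.3 and 204 CPM in Stat3cKO LPS, against 299, 265 and 253 CPM in Stat3cKO uninjured. Its groups did not overlap but the LPS libraries were far apart, and the log2 fold change was -0.89 ± 0.32 (SE, adjusted p = 0.109). DESeq2 called Ldha and Pkm in addition to Hk1 and Aldoa. In the authors' deposited table the false discovery rate was 0.0115 for Hk1 and 0.0327 for Ldha, which pass 0.05, and 0.0892 for Aldoa and 0.255 for Pkm, which do not. Ldhb (-0.26 ± 0.14 on the log2 scale, adjusted p = 0.278), Pfkm (-0.19 ± 0.12 on the log2 scale, adjusted p = 0.365) and Aldoc (-0.18 ± 0.093 on the log2 scale, adjusted p = 0.264) did not pass. The uncertain Gapdh, Pgk1 and Eno1 had log2 fold changes of 0.0066 ± 0.51, 0.45 ± 0.40 and -2.29 ± 1.34.

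Markers moved in Stat3cKO LPS as well, where 10.6% of all 11709 genes passed. Of 10 astrocyte markers 3 rose (Gfap, S100b and Gjb6) and 2 fell (Gja1 and Aqp4), and the 9 without Gfap summed to 20570.0 to 22228 CPM in Stat3cKO LPS, against 24327 to 27219.9 CPM in Stat3cKO uninjured. Oligodendrocyte markers, of which 2 of 9 rose (Mobp and Mbp), summed to 8965 to 11816 CPM in LPS and 5347 to 7028 CPM in uninjured mice. Neuron markers, of which 4 of 14 rose (Tubb3, Rbfox3, Nefl and Nefm), summed to 839 to 1046 CPM in LPS and 531 to 639 CPM in uninjured mice. C1qb of microglia (1 of 4) and Cd68 of macrophages (1 of 3), which was near 0 in uninjured mice and was tested through LPS only, rose, while Gpr17 of progenitors (1 of 5) and Col1a2 of fibroblasts (1 of 5) fell. Their part in the fall of Hk1 and Aldoa was not tested.

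In WT mice LPS moved none of the 10 enzymes past the threshold in edgeR, where 2.54% of 10566 genes passed. Ldha and Ldhb, 2 of the 10, had an unadjusted p under 0.05, as did 1458 of all 10566 genes, and DESeq2 called 1, Ldhb. Ldhb had 1124, 804, 1134 and 772 CPM in WT LPS, against 1427, 1436, 1295 and 1276 CPM in WT uninjured. All 4 LPS libraries were below all 4 uninjured ones, which held for 2 of the 10 enzymes (Ldhb and the uncertain Eno1) and for 5.50% of all 10568 genes listed, with a log2 fold change of -0.54 ± 0.17 (SE, adjusted p = 0.144). Ldha had 199.7, 194, 326 and 164 CPM in WT LPS, against 413, 322, 352 and 290.2 CPM in WT uninjured. WT LPS 3 lay within the uninjured range, the log2 fold change was -0.67 ± 0.23 (SE, adjusted p = 0.169), and without WT LPS 3 the adjusted p was 0.0388. Hk1 had a log2 fold change of 0.018 ± 0.23 (SE, adjusted p = 0.991), Pfkm of 0.12 ± 0.18 (SE, adjusted p = 0.865) and Aldoa of -0.31 ± 0.15 (SE, adjusted p = 0.420). For Aldoc it was -0.19 ± 0.14 (SE, adjusted p = 0.662) and for Pkm -0.31 ± 0.16 (SE, adjusted p = 0.444). The uncertain Gapdh and Pgk1 stood at 0.32 ± 0.85 (SE, adjusted p = 0.942) and -0.26 ± 0.46 (SE, adjusted p = 0.900). Eno1, the enolase common outside muscle and neurons, lies at chr4:150236721-150248879 on the plus strand and had 0, 208, 15 and 9 counts in WT LPS, against 262, 560, 250 and 255 counts in WT uninjured. Its LPS libraries were lower, 1 of them at 0, but they differed widely among themselves, with a log2 fold change of -2.66 ± 1.74 (SE, adjusted p = 0.589). Among WT markers Gja1 and Aqp4 of astrocytes (2 of 10) and Col1a1 of fibroblasts (1 of 5) fell, and no listed neuron, oligodendrocyte or microglia marker passed in edgeR, with 1 of 14, 7 of 9 and 1 of 5 at an unadjusted p under 0.05.

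In Smarca4cKO mice LPS moved none of the 9 enzymes past the threshold in edgeR or in DESeq2, and none had an unadjusted p under 0.05. Only 0.0249% of 8040 genes passed in edgeR, and 468 of them had an unadjusted p under 0.05. Aldoc had 12622, 11447 and 9694 CPM in Smarca4cKO LPS, with a log2 fold change of 0.11 ± 0.14 (SE, adjusted p = 0.998). Its 95% interval ran between -0.21 and 0.43 on the log2 scale. For Pfkm the log2 fold change was 0.23 ± 0.17 (SE, adjusted p = 0.998) and the interval -0.15 to 0.62. For Ldhb it was -0.10 ± 0.18 (SE, adjusted p = 0.998), with an interval of -0.52 to 0.32. The other 6 enzymes had log2 fold changes of 0.46 ± 1.52 (Gapdh), 0.24 ± 1.12 (Pgk1), 0.081 ± 0.18 (Aldoa), -0.075 ± 0.24 (Hk1), -0.23 ± 0.24 (Pkm) and -0.39 ± 0.46 (Ldha). Without the library labelled Smarca4cKO LPS 2, whose Smarca4 level was the highest of the Smarca4cKO groups, the count of enzymes past the threshold was also 0.

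**Figure D3:**
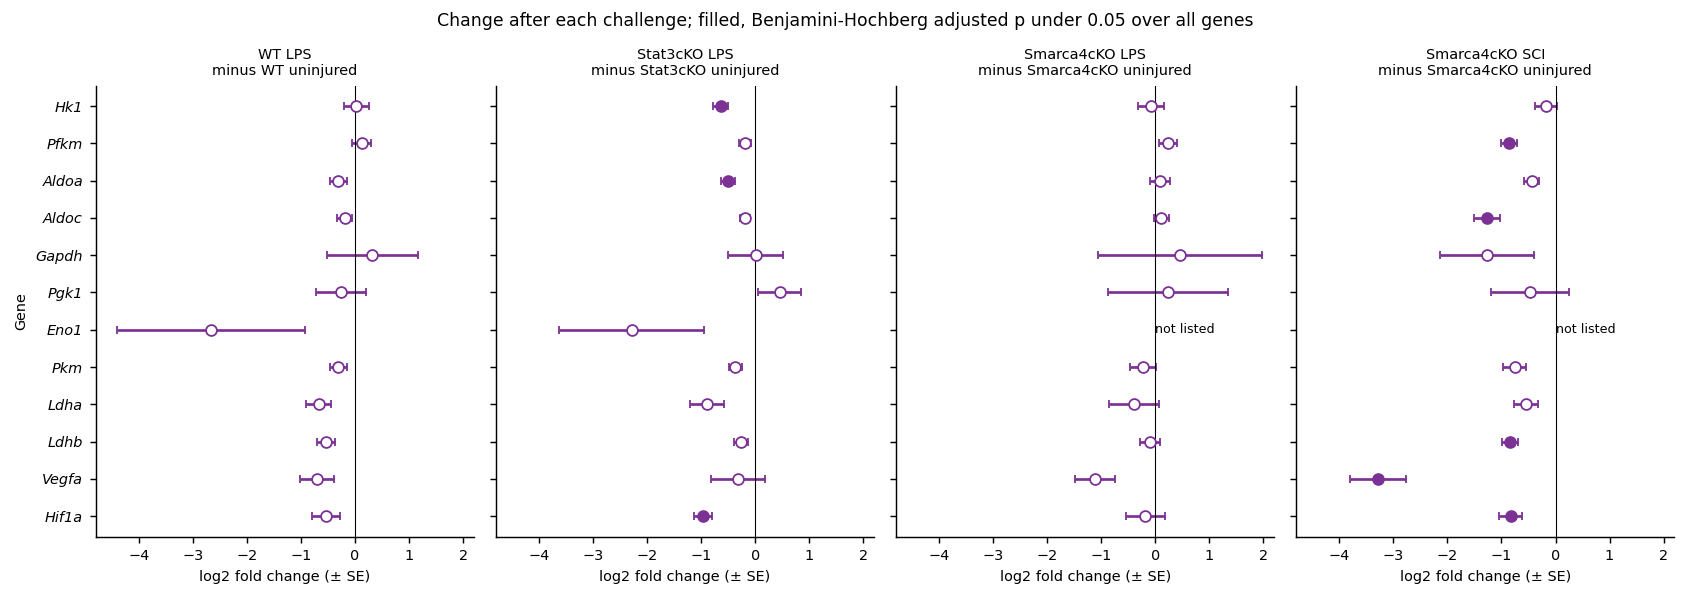
Log2 fold change (horizontal axis, ± SE) of the 10 enzymes, Vegfa and Hif1a after each challenge relative to uninjured mice of the same genotype. Filled points pass an adjusted p under 0.05 over all genes tested: Hk1, Aldoa and Hif1a after LPS in Stat3cKO, and Pfkm, Aldoc, Ldhb, Vegfa and Hif1a after SCI.

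Pfkm, Aldoc and Ldhb were also lower after SCI than after LPS in Smarca4cKO mice. SCI and LPS libraries were compared directly in a fit of the 3 Smarca4cKO groups, where 3.78% of 7969 genes passed. Of 9 enzymes 3 were lower in SCI than in LPS and none was higher. Smarca4cKO LPS libraries had 1565, 1512 and 1277 CPM of Pfkm and 1041, 855 and 752 CPM of Ldhb. Every SCI library lay below every LPS library for 4 of the 9 (Pfkm, Aldoc, Ldhb and the uncertain Gapdh), as for 10.5% of the 7834 genes in all tables. The log2 difference was -1.02 ± 0.15 (SE, adjusted p = 0.00442) for Pfkm and -1.30 ± 0.22 (SE, adjusted p = 0.00825) for Aldoc, and both passed in all 16 other settings, including that without Smarca4cKO LPS 2. For Ldhb it was -0.67 ± 0.16 (SE, adjusted p = 0.0494), and it passed in 5 of 16. Leaving out any 1 library except Smarca4cKO LPS 3 ended that call, with adjusted p between 0.0747 and 0.139. Both challenges are compared with the same uninjured libraries, so their separate changes are not independent.

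No enzyme passed the test for a different LPS response between genotypes. The interaction of Stat3cKO with LPS passed for 0 of 10 enzymes in edgeR and in DESeq2, where 0.377% of 10341 genes passed in edgeR. An unadjusted p under 0.05 was reached by 960 of all 10341 genes and by 1 enzyme. That enzyme was Hk1, whose response was lower in Stat3cKO than in WT by a log2 difference of -0.68 ± 0.29 (SE, adjusted p = 0.450), with a 95% interval of -1.29 to -0.078. For Aldoa, the log2 difference was -0.22 ± 0.21 (SE, adjusted p = 0.863), with a 95% interval of -0.65 to 0.22. The interaction of Smarca4cKO with LPS passed for 0 of 9 in edgeR and in DESeq2, where 0.316% of 7919 genes passed in edgeR. An unadjusted p under 0.05 was reached by 0 of the 9, and by 376 of all 7919 genes. The widest of these intervals belonged to Gapdh, -2.81 to 2.99 on the log2 scale, and the narrowest to Aldoc, -0.18 to 0.68.

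Between uninjured mice of different genotype no enzyme passed in edgeR. For Stat3cKO against WT, 0 of 10 passed, where 0.0777% of 10301 genes passed, and DESeq2 called 1 (Hk1). An unadjusted p under 0.05 was reached by 2 of the 10 (Hk1 and Pfkm), and by 690 of all 10301 genes. Hk1 had 636, 565 and 646 CPM in Stat3cKO uninjured, against 305, 333, 471 and 504 CPM in WT uninjured. Every Stat3cKO library was above every WT library, though the share of all genes separated in this way was not counted here. The log2 difference was 0.61 ± 0.19 (SE, adjusted p = 0.572). For Smarca4cKO against WT, 0 of 9 passed, where 0.0127% of 7897 genes passed. An unadjusted p under 0.05 was reached by 4 of the 9, and by 749 of all 7897 genes. Aldoc had 10290.4, 10378 and 10518 CPM in Smarca4cKO uninjured, against 17412, 16741, 16564 and 15852 CPM in WT uninjured. The groups were far apart and each was narrow, with a log2 difference of -0.67 ± 0.089 (SE, adjusted p = 0.0780). DESeq2 called 2 enzymes there, Aldoc and Ldhb, but the shares of all genes above are from edgeR, and those of DESeq2 are not reported here. Ldhb had a log2 difference of -0.51 ± 0.12 (SE, adjusted p = 0.192) in edgeR. Genotype cannot be told apart from the mixed strain and the separate tables.

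The proportions of isozymes differed between libraries. The ratio of Aldoc to Aldoa counts was 2.90 to 5.41 in Smarca4cKO SCI, against 7.18 to 8.16 in Smarca4cKO uninjured (lowest to highest library), so every SCI library was below every uninjured one. In Stat3cKO LPS it was 9.36 to 10.8, against 7.92 to 8.19 in Stat3cKO uninjured, higher in every LPS library. For Ldhb to Ldha, the ratio was 5.72 to 14.4 in Stat3cKO LPS, against 4.87 to 4.89 in Stat3cKO uninjured. It was 2.08 to 3.78 in Smarca4cKO SCI and 2.61 to 5.00 in Smarca4cKO uninjured, where the ranges overlapped. These ratios were not tested.

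**Figure D4:**
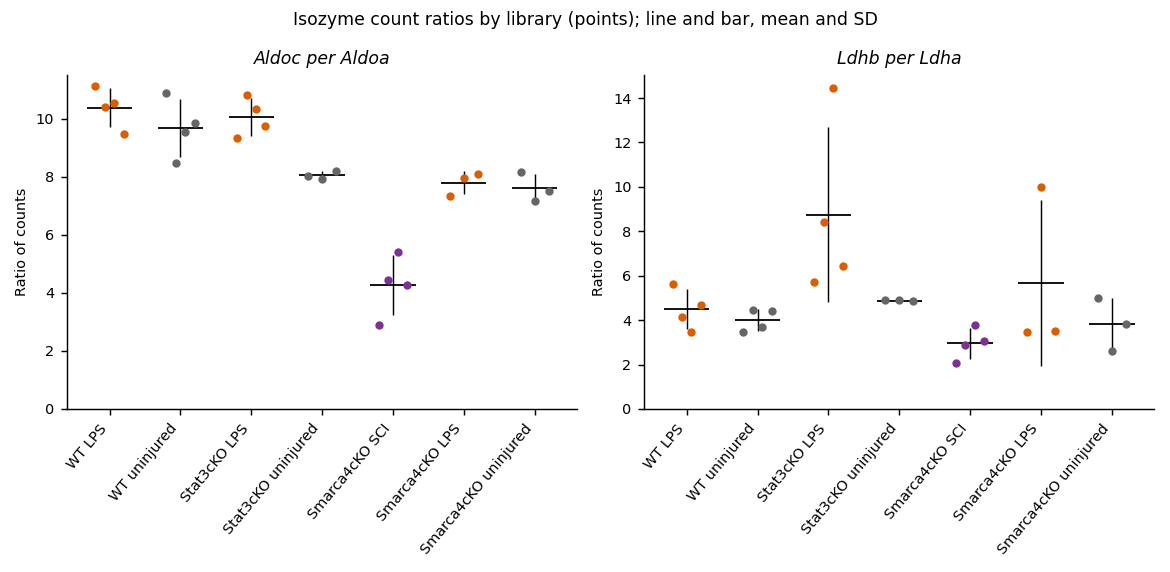
Ratio of Aldoc to Aldoa counts (left) and of Ldhb to Ldha counts (right) in each library (points) by group, with the mean (line) and SD (bar). Orange is LPS, purple SCI and grey uninjured, and the 4 SCI libraries have the lowest Aldoc to Aldoa ratios of all 25.

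Vegfa, a target of HIF-1, fell after SCI. It had 5.88, 13.2, 24.2 and 24.6 CPM in Smarca4cKO SCI, against 141, 209 and 121 CPM in Smarca4cKO uninjured. All SCI libraries were below the lowest uninjured one, and the log2 fold change was -3.29 ± 0.52 (SE, adjusted p = 0.00652), past the threshold in all 13 other settings. SCI was also lower than LPS in Smarca4cKO, by a log2 difference of -2.09 ± 0.48 (SE, adjusted p = 0.0400), a call that held in 5 of 16 settings. Leaving out any 1 library except Smarca4cKO LPS 3 ended it, with adjusted p between 0.0529 and 0.121. After LPS Vegfa did not pass in Smarca4cKO (-1.12 ± 0.37 on the log2 scale, adjusted p = 0.519), Stat3cKO (-0.32 ± 0.49 on the log2 scale, adjusted p = 0.764) or WT (-0.70 ± 0.32 on the log2 scale, adjusted p = 0.343).

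Hif1a fell after SCI and after LPS in Stat3cKO. It had 121, 175, 122 and 129 CPM in Smarca4cKO SCI, against 189, 279.8 and 220.4 CPM in Smarca4cKO uninjured, and the log2 fold change was -0.83 ± 0.21 (SE, adjusted p = 0.0327). That call held in 8 of 13 other settings. Its adjusted p was 0.0906, 0.106 and 0.102 without Smarca4cKO SCI 1, 3 and 4, and 0.0843 without Smarca4cKO uninjured 2. In the libraries labelled Stat3cKO LPS Hif1a had 118, 99.0, 136 and 121 CPM, against 269, 210.3 and 224 CPM in Stat3cKO uninjured. The groups were well apart, with a log2 fold change of -0.97 ± 0.17 (SE, adjusted p = 0.00581), past the threshold in all 13 other settings. In WT the log2 fold change after LPS was -0.54 ± 0.26 (SE, adjusted p = 0.389) and in Smarca4cKO -0.18 ± 0.35 (SE, adjusted p = 0.998). Messenger RNA of Hif1a is not a measure of its protein, which oxygen controls.

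The other genes of glucose handling moved unevenly after SCI, where 14.5% of all 11109 genes passed, 1127 higher and 479 lower. Of 12 other glycolysis genes tested, 2 fell (Gpi1 and Tpi1) and 1 rose (Eno3). Tpi1, which interconverts the triose phosphates made by aldolase, averaged 424 ± 61.5 CPM in Smarca4cKO SCI and 623 ± 31.1 CPM in Smarca4cKO uninjured (SD, n = 4 and 3), a log2 fold change of -0.63 ± 0.14 (SE, adjusted p = 0.0170). Eno3, the muscle enolase, had 661, 310, 262 and 484 counts in Smarca4cKO SCI, against 0, 1 and 0 counts in Smarca4cKO uninjured. It passed the filter on low counts through the SCI libraries only, so it could only be counted as higher. Pfkfb3, which makes the activator of phosphofructokinase, fell as the only one of 3 tested in its list, a log2 fold change of -1.30 ± 0.22 (SE, adjusted p = 0.00652). Its level averaged 108 ± 24.8 CPM in Smarca4cKO SCI and 252 ± 43.9 CPM in Smarca4cKO uninjured.

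Some genes of glycogen, the glucose store of astrocytes, fell too. Of 13 tested, 6 fell, among them Phkb, Pygb, Pgm2, Pygm and Phka1, and none rose. Of all 11109 genes tested, 479 fell and 1127 rose. Phka1, a regulatory subunit of phosphorylase kinase, averaged 27.6 ± 6.55 CPM in Smarca4cKO SCI and 101 ± 19.0 CPM in Smarca4cKO uninjured, a log2 fold change of -1.95 ± 0.32 (SE, adjusted p = 0.00652). Of 8 genes of glucose and lactate transport, 2 rose (Slc16a7 and Slc16a1) and 1 fell (Slc2a1). Slc2a1, the glucose transporter GLUT1, averaged 214 ± 26.5 CPM in Smarca4cKO SCI and 305 ± 18.8 CPM in Smarca4cKO uninjured, a log2 fold change of -0.59 ± 0.15 (SE, adjusted p = 0.0318). Slc16a1, the lactate transporter MCT1, is known in oligodendrocytes as well as astrocytes, and was named after its values were seen. It averaged 372 ± 85.5 CPM in Smarca4cKO SCI and 121 ± 9.45 CPM in Smarca4cKO uninjured, a log2 fold change of 1.55 ± 0.21 (SE, adjusted p = 0.00539). Slc16a7, the lactate transporter MCT2, had 400, 286, 470 and 419 counts in Smarca4cKO SCI and 0 in each Smarca4cKO uninjured library, so it too entered the test through SCI alone and could only be counted as higher.

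Where pyruvate leaves glycolysis, 1 of 14 genes fell after SCI, Pdha1 of the pyruvate dehydrogenase complex, a log2 fold change of -0.90 ± 0.13 (SE, adjusted p = 0.00652). For this list and those below, the background was 479 lower and 1127 higher of all 11109 genes. Of 8 genes of the NADH shuttles, which return the cytosolic NADH of glycolysis to mitochondria, 4 fell (Mdh2, Mdh1, Gpd2 and Gpd1). Gpd1, the cytosolic glycerol phosphate dehydrogenase, averaged 533 ± 45.6 CPM in Smarca4cKO SCI and 1210.1 ± 75.1 CPM in Smarca4cKO uninjured, a log2 fold change of -1.26 ± 0.13 (SE, adjusted p = 0.00206). In the pentose phosphate pathway Taldo1 rose (1.18 ± 0.19 on the log2 scale, adjusted p = 0.00652) and Tkt fell (-0.50 ± 0.12 on the log2 scale, adjusted p = 0.0228) among 7 tested. Of 25 genes of the HIF pathway and hypoxia targets, 9 fell (Slc2a1, Hif1a, Egln1, P4ha1, Epas1, Pfkfb3, Vhl, Ak4 and Vegfa) and 1 rose. That gene was Ndrg1, which is also abundant in oligodendrocytes, with 790.1 ± 86.0 CPM in Smarca4cKO SCI and 179 ± 66.1 CPM in Smarca4cKO uninjured, a log2 fold change of 2.06 ± 0.27 (SE, adjusted p = 0.00489). The list includes both the oxygen sensors Egln1 and Vhl and targets of HIF.

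**Figure D5:**
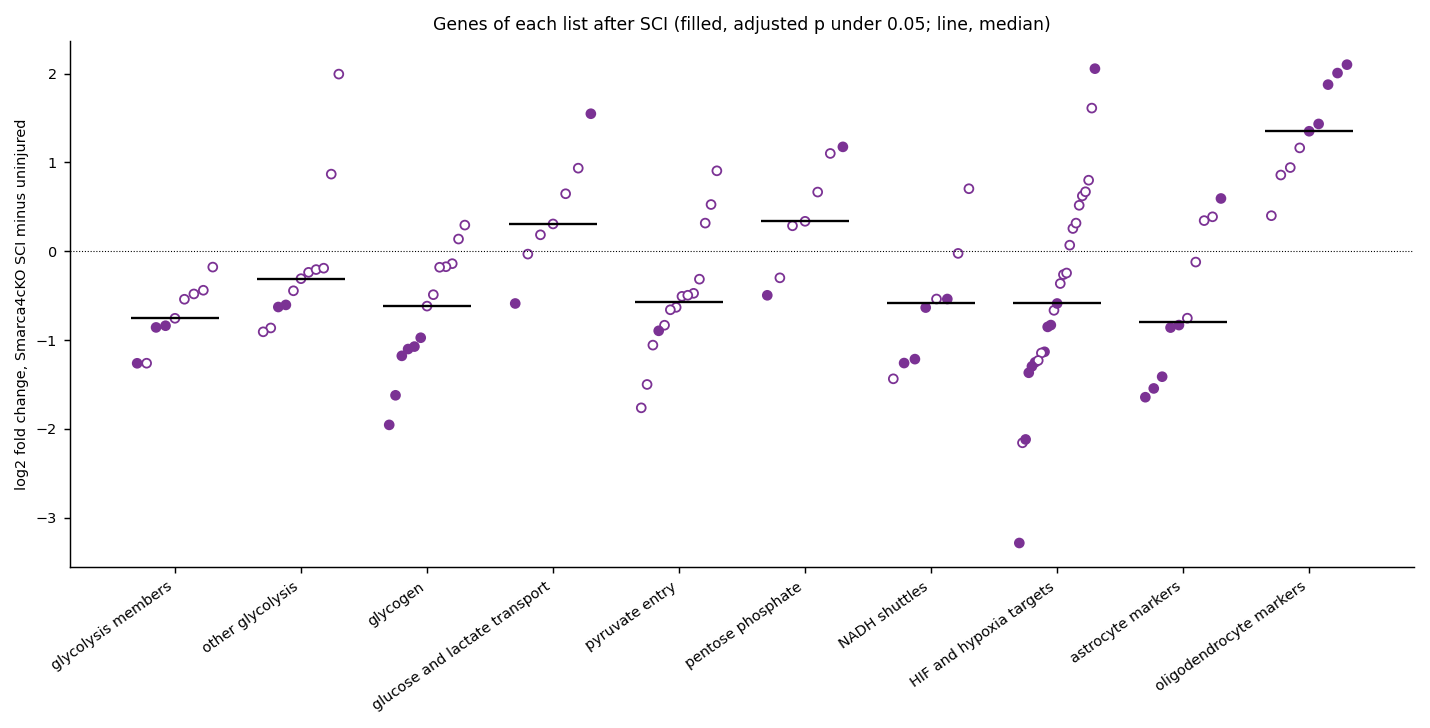
Log2 fold change in Smarca4cKO SCI relative to Smarca4cKO uninjured (vertical axis) for the genes of each list with more than 3 counts in an uninjured library. Filled points pass an adjusted p under 0.05 and lines are medians: most glycogen and astrocyte marker genes lie below 0, and the oligodendrocyte markers drawn lie above it.

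The same lists were read after LPS. In Stat3cKO, 0 of 10 other glycolysis genes passed in edgeR, with 5 at an unadjusted p under 0.05. Of all 11709 genes, 10.6% passed and 2826 had an unadjusted p under 0.05. Pfkfb3 fell (-1.30 ± 0.23 on the log2 scale, adjusted p = 0.00629), as did Pygb, brain glycogen phosphorylase (-1.25 ± 0.17 on the log2 scale, adjusted p = 0.00108), 1 of 14 glycogen genes. G6pdx, the entry to the pentose phosphate pathway, rose (1.02 ± 0.18 on the log2 scale, adjusted p = 0.00536), while Taldo1 and Tkt fell, among 7 tested. Tkt had a log2 fold change of -0.85 ± 0.17 (SE, adjusted p = 0.0120). Pdk2, a kinase that switches off pyruvate dehydrogenase, rose (0.66 ± 0.12 on the log2 scale, adjusted p = 0.00592), and Gpd2 fell (-0.95 ± 0.19 on the log2 scale, adjusted p = 0.0102). Of 26 HIF pathway genes and targets 4 fell (Hif1a, Pfkfb3, P4ha1 and Ak4) and 3 rose (Bnip3, Ddit4 and Higd1a). Ak4, an adenylate kinase, had a log2 fold change of -2.26 ± 0.26 (SE, adjusted p = 0.000436), and Bnip3, a mitophagy receptor, of 1.99 ± 0.43 (SE, adjusted p = 0.0147).

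In WT, 3 of 11 other glycolysis genes fell after LPS: Pfkl, Tpi1 and Eno1b. Of all 10566 genes tested there, 105 fell. Tpi1 averaged 428 ± 82.2 CPM in WT LPS and 809 ± 57.4 CPM in WT uninjured (SD, n = 4 each), a log2 fold change of -0.95 ± 0.17 (SE, adjusted p = 0.0165). Eno1b, the near-identical copy of Eno1, averaged 96.9 ± 34.7 CPM in WT LPS and 218 ± 19.5 CPM in WT uninjured, a log2 fold change of -1.20 ± 0.26 (SE, adjusted p = 0.0361). Reads of Eno1 and Eno1b may be split between the 2 rows, so neither value is certain. Gpd1 (-0.83 ± 0.20 on the log2 scale, adjusted p = 0.0494) and P4ha1, a collagen hydroxylase (-1.35 ± 0.32 on the log2 scale, adjusted p = 0.0454), fell too, as 1 of 8 and 1 of 25 in their lists. In Smarca4cKO LPS no gene of these lists passed in edgeR. Unadjusted p under 0.05 were reached by 0 of 9 other glycolysis, 3 of 12 glycogen and 3 of 24 HIF pathway genes, and by 468 of all 8040 genes.

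Across the 25 libraries the enzymes varied together to different degrees. The highest Pearson correlation of log2 levels was 0.93 between Pfkm and Aldoc, followed by 0.93 between Pkm and Ldhb. The lowest was -0.31 between Hk1 and Pgk1. These values are descriptions over libraries that share groups and tables, with no test. Among 7708 genes outside the lists and in all tables, those whose levels followed the mean profile of the 9 enzymes most closely included Acsbg1 (r = 0.942), Cs (0.927), Slc6a9 (0.925) and Ckb (0.922). Acsbg1 activates long fatty acids, Cs is an enzyme of the citric acid cycle, Slc6a9 is a glycine transporter of astrocytes, and Ckb is brain creatine kinase. These genes were picked over all 25 libraries, SCI included. Their changes after SCI were therefore set in part by that choice and are no separate support. After SCI Slc6a9 averaged 562 ± 89.9 CPM in Smarca4cKO SCI and 1601 ± 249.6 CPM in Smarca4cKO uninjured, a log2 fold change of -1.58 ± 0.17 (SE, adjusted p = 0.00269), and Ckb did not pass (-0.67 ± 0.21 on the log2 scale, adjusted p = 0.0837).

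Promoters of Pfkm, Aldoc and Ldhb are shown because these enzymes fell after SCI. Hif1a and Vegfa fell too, and a link between these falls was not tested. RefSeq gives 21 promoter windows for the 10 enzymes on GRCm38.p6, each of 300 bases, 250 before a transcript start and 50 after it. The core bound by HIF was searched as ACGTG or GCGTG, and a site of the STAT family as TTCNNNGAA, both on either strand. Of all 32851 promoters, 43.8% hold the HIF core and 8.30% the STAT letters. Among the 21 windows of the enzymes, some of which overlap, 17 held the HIF core and 2 the STAT letters, 1 of Pfkm and 1 of Aldoc. Every enzyme had a window with the HIF core, also those that did not pass after SCI. Matches in 1 window reached 7 for Ldha and 5 for Hk1, which did not pass, against 3 for Pfkm, 3 for Aldoc and 1 for Ldhb. Overlapping matches on the 2 strands were each counted, so the letters CACGTG count as 2. Such overlaps occur in these windows of Ldha, Hk1 and Pfkm, which hold fewer separate sites than matches. Each sequence reads 5′ to 3′ on the strand of its gene, with the HIF core (5 bases) or the STAT letters (9 bases) in capitals. Of the 4 Pfkm windows, 3 hold the HIF core, and the one with the STAT letters is printed. The 2 Aldoc windows belong to separate starts, and a match is a description of the letters only.
Pfkm (chr15:98108221-98108520, plus strand): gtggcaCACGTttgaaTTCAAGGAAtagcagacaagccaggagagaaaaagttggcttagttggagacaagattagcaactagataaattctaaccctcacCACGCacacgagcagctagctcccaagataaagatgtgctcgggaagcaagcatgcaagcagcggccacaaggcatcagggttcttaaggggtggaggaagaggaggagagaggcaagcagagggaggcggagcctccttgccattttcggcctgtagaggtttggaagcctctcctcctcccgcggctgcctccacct
Aldoc (chr11:78322823-78323122, plus strand): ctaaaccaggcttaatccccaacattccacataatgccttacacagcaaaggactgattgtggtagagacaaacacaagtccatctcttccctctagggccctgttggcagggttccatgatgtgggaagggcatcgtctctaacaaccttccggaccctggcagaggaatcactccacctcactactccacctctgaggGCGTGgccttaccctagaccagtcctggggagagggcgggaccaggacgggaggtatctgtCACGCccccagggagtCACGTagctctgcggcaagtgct
Aldoc (chr11:78323948-78324247, plus strand): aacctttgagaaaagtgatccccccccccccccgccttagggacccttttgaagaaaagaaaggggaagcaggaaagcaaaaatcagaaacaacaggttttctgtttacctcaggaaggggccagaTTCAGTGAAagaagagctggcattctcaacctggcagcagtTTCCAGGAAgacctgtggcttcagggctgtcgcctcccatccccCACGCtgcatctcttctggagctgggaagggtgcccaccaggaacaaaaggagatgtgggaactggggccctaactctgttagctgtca
Ldhb (chr6:142507908-142508207, minus strand): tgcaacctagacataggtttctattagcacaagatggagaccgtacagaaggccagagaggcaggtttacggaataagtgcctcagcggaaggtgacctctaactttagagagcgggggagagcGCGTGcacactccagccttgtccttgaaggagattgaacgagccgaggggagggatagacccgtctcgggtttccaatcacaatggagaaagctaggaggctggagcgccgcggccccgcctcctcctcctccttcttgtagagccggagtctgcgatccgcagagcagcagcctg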

How the data were processed

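Ribosome-associated polyA RNA of 25 libraries in 7 groups was sequenced with paired reads of 50 bases, per the labels' protocols. Tools listed in the submitters' processing notes are edgeR 3.28.0, HTSeq 0.6.0 and STAR 2.4.0j, with mm10 as the build, and the role of each tool is not given. The authors deposited 4 tables that hold raw counts per gene and library, and each also gives the authors' log2 fold change and p-value columns for 1 comparison. A further 56 per-sample columns in them were not used. The tables list different genes, so CPM levels of single genes use library totals and TMM factors over the 7834 genes that all 4 hold. Summed levels of enzymes and markers were instead scaled within each deposited table, over all genes it lists, so the 2 scales differ slightly.

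Counts were tested with edgeR 4.0.16 in R 4.3.3 (filter on low counts, TMM scaling, quasi-likelihood F test, Benjamini-Hochberg adjustment over all genes tested, threshold 0.05). Each challenge was fitted with its own uninjured group, and direct and interaction comparisons with the groups they name. DESeq2 1.42.0, other scalings, no filter, 1 fit of all groups and leaving out each library were alternatives. The fits were also run on simulated data with 200 changed genes, and the outcome is not reported here. Correlations used log2 of CPM plus 1.

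The enzymes, gene lists and comparisons were chosen with earlier results of these data known. By rule, the text names the enzymes, Vegfa, Hif1a and, per list, the largest rise and fall past the threshold. Other names given with a list's count were named after their values were seen. The description of 1 Smarca4cKO LPS library names the SCI table, and its title and treatment label were followed. Some genes of these lists are not reported here.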

Additional observations from a re-analysis of the deposited data

Results flagged for a closer look

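Among the levels of the 10 enzymes, Vegfa and Hif1a, 47 groups of 4 libraries were searched for a library far from the others, and 2 were found, where chance gives about 1 in 20. WT LPS 2 had 2.95 CPM of Eno1, against 0 to 0.216 CPM in the other WT LPS libraries. Smarca4cKO SCI 2 had 175 CPM of Hif1a, against 121 to 129 CPM in the other Smarca4cKO SCI libraries.

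The effects of SCI and LPS in Smarca4cKO mice differed for 4 genes by the direct test between both groups. The log2 difference of SCI minus LPS was -1.02 ± 0.15 (SE, adjusted p = 0.00442) for Pfkm and -1.30 ± 0.22 (SE, adjusted p = 0.00825) for Aldoc. It was -0.67 ± 0.16 (SE, adjusted p = 0.0494) for Ldhb and -2.09 ± 0.48 (SE, adjusted p = 0.0400) for Vegfa, whose calls were lost without most single libraries. The adjusted p is from edgeR's quasi-likelihood test. Of all 7969 genes in this test, 3.78% passed. All 4 SCI libraries lay below all 3 LPS libraries for each of these genes, as for 10.5% of the 7834 genes in all tables. The genes were picked by the test between the same libraries, so this separation is no further support.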

How the results depend on the processing

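No direction of a called enzyme reversed in any alternative. The share of all genes passing in each alternative is not reported here, so the counts below describe the enzymes only. The count of enzymes past the threshold after SCI was 3, with 5 by DESeq2 and 3 to 5 when 1 library was left out (5 without Smarca4cKO SCI 2). After LPS in Stat3cKO it was 2, with 4 by library totals alone, 4 by DESeq2, 1 in 1 fit of all 7 groups and 0 to 3 when 1 library was left out. It was 0 without Stat3cKO LPS 2 and without each of the Stat3cKO uninjured libraries, and 1 without Stat3cKO LPS 1 or 3. After LPS in WT it was 0, with 1 by DESeq2 and 0 to 1 when 1 library was left out (1 without WT LPS 3). Between uninjured mice it was 0, with 1 by DESeq2 for Stat3cKO against WT, and 2 by DESeq2 and 1 in the fit of all groups for Smarca4cKO against WT. Where calls changed, the cause was not tested. With library totals in place of TMM the median log2 change over all genes was 0.14 after SCI (0.0671 with TMM), 0.10 between SCI and LPS (-0.0527) and 0.24 between Smarca4cKO and WT uninjured mice (0.0323). Of 162 levels recomputed with other scalings, 19 moved by more than 1 SD, with ratios of 0.909 to 1.12 to the level printed. No paired analysis was possible because the numbers in the library titles pair no libraries between groups. Groups of 3 or 4 libraries, single tables per genotype and shared sequence in Gapdh, Pgk1 and Eno1 limit what can be read.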
